A study of Mus musculus with 4 samples.

Results

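Malat1, Neat1 and the pair of loci annotated opposite to Malat1, Gm37376 and ENSMUSG00000092267, are described here in RNA sequencing libraries of mouse T-helper 2 (Th2) cells. The 4 loci were chosen by name, all lie on chromosome 19 (mm10), and all were found among the 50600 genes of the count tables. There was 1 group, of 4 libraries numbered as biological replicates 1 to 4, made from primary cells of strain C57BL/6NJ. No treatment, genotype or age was given for it. In the labels the assay is named total RNA-seq, and they link a library protocol named for poly(A) RNA, together with a protocol for differentiating CD4 T cells, while the file headers name a time course of Th1 and Th2 cells and place the samples at 0 hours. All 4 share 1 donor identifier and separate mice are not stated, so p-values over libraries measure only the spread between these samples, which may be technical.

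Malat1 is an abundant long noncoding RNA of the nucleus, where it is found in nuclear speckles, bodies rich in splicing factors. Neat1 is the noncoding RNA on which paraspeckles, another kind of nuclear body, are built. The 3′ end of Malat1 and that of the long form of Neat1 are cut by RNase P ahead of a small tRNA-like RNA, and an A-rich stretch encoded in the genome folds with U-rich stretches into a triple helix in place of a poly(A) tail. The short form of Neat1 ends earlier and is polyadenylated. Gm37376 and ENSMUSG00000092267 are annotated loci for which no function is given here.

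Malat1 (ENSMUSG00000092341.2) was annotated as 1 exon of 6983 bases on the minus strand, at chr19:5795690-5802672. Neat1 (ENSMUSG00000092274.2) was 1 exon of 20771 bases on the same strand, at chr19:5824708-5845478, and 22035 bases separated its 3′ end from the 5′ end of Malat1. Gm37376 (ENSMUSG00000102349.1) was 1 exon of 453 bases on the plus strand, at chr19:5801941-5802393, and lay opposite positions 280 to 732 of Malat1, counted from the 5′ end of Malat1. ENSMUSG00000092267 (ENSMUSG00000092267.1) had 2 exons on the plus strand, 182 bases at chr19:5797562-5797743 and 243 bases at chr19:5798307-5798549. These lay opposite positions 4930 to 5111 and 4124 to 4366 of Malat1. The exon of Malat1 covered 100% of the exon bases of both loci, which together spanned 878 bases or 12.6% of its length. Over the rest of Malat1, and over the whole of Neat1, no gene on the plus strand had an exon, so fragments placed there on the plus strand enter no gene count in these tables.

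The exons of ENSMUSG00000092267 are shown with the adjoining 10 bases of its intron, because the letters at the intron ends bear on the strand on which the annotation places a splice. They are on the plus strand of GRCm38, and capitals mark the first 2 and the last 2 bases of the intron of 563 bases.
Exon 1: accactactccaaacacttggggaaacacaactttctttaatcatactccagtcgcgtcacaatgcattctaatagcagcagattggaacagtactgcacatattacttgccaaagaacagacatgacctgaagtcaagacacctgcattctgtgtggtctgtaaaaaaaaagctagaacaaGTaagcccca
Exon 2: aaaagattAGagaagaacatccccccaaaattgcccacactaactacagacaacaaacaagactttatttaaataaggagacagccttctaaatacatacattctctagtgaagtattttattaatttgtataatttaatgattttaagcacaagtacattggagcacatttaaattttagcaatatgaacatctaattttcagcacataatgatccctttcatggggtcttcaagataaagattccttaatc
The intron began with GT and ended with AG on the plus strand, the usual letters of an intron read on that strand. None of the 30-base windows of either exon was found in the transcripts of another gene of GENCODE mouse release 21, on either strand, among 141767 transcripts searched. The exons held 40.7% and 30.9% G and C.

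The first 300 bases of Gm37376 (chr19:5801941-5802240, plus strand, GRCm38) are shown because a part of them recurs in many other genes, and capitals mark that part.
Gm37376: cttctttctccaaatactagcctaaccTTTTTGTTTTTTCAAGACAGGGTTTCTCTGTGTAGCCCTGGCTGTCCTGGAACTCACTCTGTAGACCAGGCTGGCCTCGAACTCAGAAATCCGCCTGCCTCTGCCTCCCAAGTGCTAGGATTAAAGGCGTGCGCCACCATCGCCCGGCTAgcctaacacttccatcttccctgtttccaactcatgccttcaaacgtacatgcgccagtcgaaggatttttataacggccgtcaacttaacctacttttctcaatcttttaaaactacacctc
The capitals cover 150 of its 453 bases (33.1%, positions 28 to 177), each of which lay in a 30-base window that was also found in transcripts of other genes, 2367 genes in all. The same stretch, read on the other strand, made up 2.15% of Malat1. Per the file headers, fragments aligned to several places were not counted, so the density of Gm37376 is per base of its whole length and not of its uniquely readable length. Neat1 held 472 such bases (2.27%), in windows shared with 1814 other genes.

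The last 110 bases of annotated Neat1 (chr19:5824708-5824817) and the stretch of Malat1 that ends in the same 11 letters (chr19:5795982-5796091) are shown because both RNAs are known for this kind of end. Both are on the minus strand of GRCm38, and capitals mark the shared end and each T-rich stretch, defined as at least 3 T, then 1 or 2 bases of C or G, then at least 3 T.
Neat1: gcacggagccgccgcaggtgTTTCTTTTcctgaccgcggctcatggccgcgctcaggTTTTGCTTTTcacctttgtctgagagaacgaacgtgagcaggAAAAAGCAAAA
Malat1: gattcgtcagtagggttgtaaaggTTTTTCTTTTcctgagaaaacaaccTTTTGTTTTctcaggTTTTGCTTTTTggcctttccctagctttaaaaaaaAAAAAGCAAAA
The shared end, AAAAAGCAAAA, occurred at 1 place in each of the RNAs and was absent from both loci opposite to Malat1. Searched on both strands, it was found in 787 of 55450 genes (1.42%), and in 376 of them on the strand of the transcript. The Neat1 stretch held 2 T-rich stretches and the Malat1 stretch held 3, while 0.953% of 138029 transcripts held at least 2 in their last 110 bases. In Malat1 the shared end lay at positions 6681 to 6691, 292 bases ahead of the annotated 3′ end and 1569 bases past the part covered by ENSMUSG00000092267. A match of letters is a description of these sequences only.

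The loci on the plus strand carried almost all of the fragments at Malat1. Gm37376 had 8729, 10359, 12449 and 7376 counts in replicates 1 to 4, or 4096, 4404, 6473 and 5080 CPM (counts scaled to a common library size). ENSMUSG00000092267 had 8458, 9195, 11043 and 6033 counts, or 3968, 3910, 5742 and 4155 CPM. For both loci replicate 3 was the highest of the 4 libraries, and the highest CPM was 1.58 times the lowest for Gm37376 and 1.47 times for ENSMUSG00000092267. Gm37376 averaged 5013 ± 1056 CPM and ENSMUSG00000092267 averaged 4444 ± 872 CPM (SD, n = 4). In TPM, which scales the counts per exon length to the same total in each library, they averaged 16713 ± 3244 and 15785 ± 2780, and by mean TPM they ranked 5 and 6 of all genes. By mean count, which is not divided by length, they ranked 11 and 16.

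All levels and ranks given here count fragments by the strand on which each gene is annotated, and whether that is the strand of the RNA they came from was not tested for Malat1, Neat1 or any gene compared with them. Malat1 itself had 281, 529, 479 and 213 counts in replicates 1 to 4, which is 132, 225, 249 and 147 CPM. Replicates 2 and 3 were the higher ones, and the mean was 188 ± 57.6 CPM (SD, n = 4). In TPM it had 28.0, 51.0, 52.6 and 31.8, a mean of 40.9 ± 12.7, which ranked 2033 among all genes. Among 683 genes annotated as intergenic long noncoding RNAs and holding a count in any library, it ranked 111 by mean TPM, and their median was 1.52 TPM.

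Neat1 was the sparsest of the 4 loci. It had 9, 35, 24 and 12 counts, which is 4.22, 14.9, 12.5 and 8.26 CPM with a mean of 9.96 ± 4.70 (SD, n = 4). Every library was above the 1.28 to 2.07 CPM that the upper limit of a count of 0, 3 counts, corresponds to at these depths. Replicates 2 and 3 were again the higher ones, and the highest library was 3.52 times the lowest. The mean of 0.731 ± 0.359 TPM ranked 429 among the 683 intergenic long noncoding RNAs with a count.

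**Figure D1:**
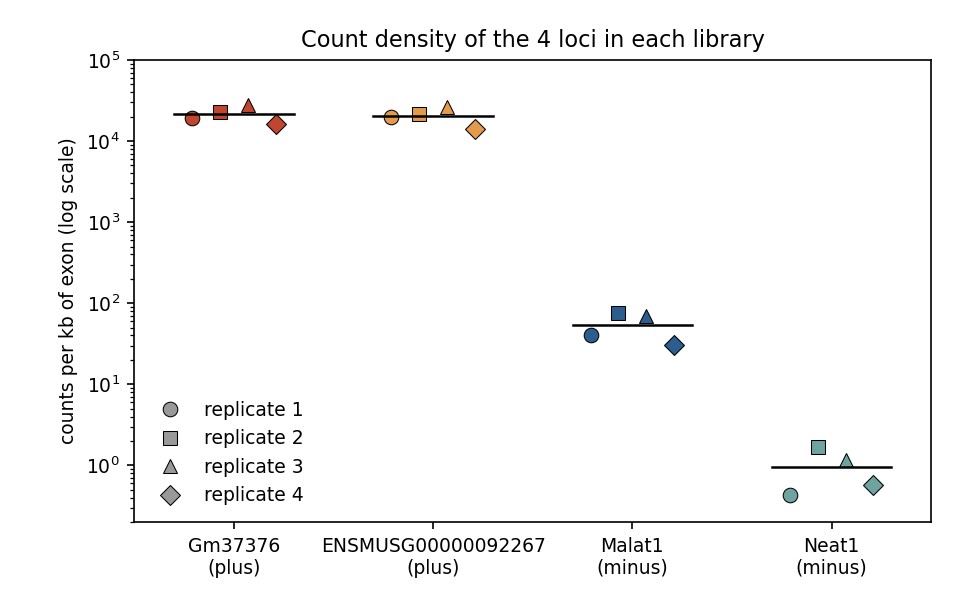
Counts per kb of exon (log axis) of Gm37376, ENSMUSG00000092267, Malat1 and Neat1; each point is 1 of the 4 libraries, shaped by replicate, and the line is their mean. The means are 21475, 20429, 53.8 and 0.963 counts per kb, and the points of Gm37376 and ENSMUSG00000092267 overlap while those of the other 2 loci each stand apart.

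Per kb of exon, Gm37376 had 19269, 22868, 27481 and 16283 counts and ENSMUSG00000092267 had 19901, 21635, 25984 and 14195, while Malat1 had 40.2, 75.8, 68.6 and 30.5. The values of both loci opposite to Malat1 were far above all 4 values of Malat1 and did not overlap them. The density of Gm37376 was 479, 302, 401 and 534 times that of Malat1 in replicates 1 to 4, a mean log2 ratio of 8.71 ± 0.36 (SD, n = 4; higher in 4 of 4 libraries, exact two-sided sign-flip permutation p = 0.125, adjusted p = 0.15 over 6 ratios). ENSMUSG00000092267 was 495, 286, 379 and 465 times as dense as Malat1, a mean log2 ratio of 8.63 ± 0.36 with the same exact p-values. With 4 libraries the test can give no p below 0.125, so no ratio could pass 0.05. From counts summed over libraries, the fold was 399 for Gm37376 (exact 95% interval 379 to 421) and 380 for ENSMUSG00000092267 (361 to 400), and these intervals cover counting error only.

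How the length is counted set part of the size of these ratios. A fragment that overlaps a short exon can reach past it, and with 400 bases added to each exon the log2 ratios to Malat1 were 7.88 for Gm37376 and 7.18 for ENSMUSG00000092267. With no division by length they were 4.76 and 4.59. The direction was the same under each of these.

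Gm37376 and ENSMUSG00000092267 differed little from each other in density per base of whole exon length. Of the bases of Gm37376, 33.1% recur in other genes, against 0% in both exons of ENSMUSG00000092267. The ratio was not corrected for this. Gm37376 was 0.968, 1.06, 1.06 and 1.147 times as dense as ENSMUSG00000092267, a mean log2 ratio of 0.08 ± 0.10 (SD, n = 4; higher in 3 of 4 libraries, exact permutation p = 0.25, adjusted p = 0.25). From summed counts the fold was 1.05 (exact 95% interval 1.04 to 1.07, counting error only). With 400 bases added to each exon the log2 ratio was 0.69, with an exact p of 0.125, since ENSMUSG00000092267 has 2 exons and Gm37376 has 1.

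Within Malat1 and its opposite loci, Malat1 held 1.61%, 2.63%, 2.00% and 1.56% of the counts in replicates 1 to 4, a mean of 1.95% ± 0.495 (SD, n = 4). The exact (Clopper-Pearson) 95% intervals were 1.43 to 1.81%, 2.42 to 2.87%, 1.82 to 2.18% and 1.36 to 1.79%. The opposite loci held the remaining 98.4%, 97.4%, 98.002% and 98.4%. For these same fragments, those would be the shares on the strand of Malat1 if the strand assignment were turned round. A recount of the genes could give other shares, because plus-strand fragments over the rest of Malat1 entered no gene count here. In the share of Malat1, replicate 2 stood above the other libraries and replicate 3 above replicates 1 and 4 beyond counting error, which is the only error these intervals hold. ENSMUSG00000092267 held 49.2%, 47.0%, 47.0% and 44.99% of the counts of the 2 opposite loci, a mean of 47.1% ± 1.72. The intervals of replicate 1 (48.5 to 49.96%) and replicate 4 (44.1 to 45.8%) did not overlap those of replicates 2 and 3. The 4 loci together took 0.820%, 0.855%, 1.248% and 0.939% of the libraries.

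**Figure D2:**
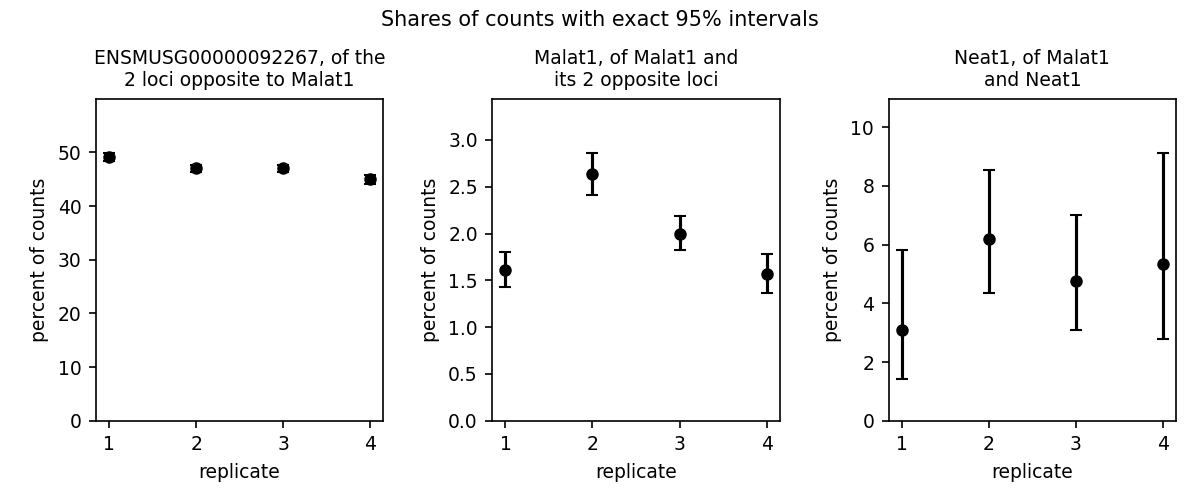
Percent of counts by replicate for ENSMUSG00000092267 among the 2 loci opposite to Malat1, Malat1 among itself and those loci, and Neat1 among Malat1 and Neat1; bars are exact 95% intervals for counting error and each axis starts at 0. Malat1 is between 1.56% and 2.63%, with replicate 2 highest, and the intervals of Neat1 overlap in all 4 libraries.

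Malat1 was denser than Neat1 in every library. Its 40.2, 75.8, 68.6 and 30.5 counts per kb stood against 0.433, 1.69, 1.16 and 0.578 for Neat1, which is 92.9, 44.96, 59.4 and 52.8 times as much. The mean log2 ratio was 5.87 ± 0.43 (SD, n = 4; higher in 4 of 4 libraries, exact permutation p = 0.125, adjusted p = 0.15). Summed over libraries the fold was 55.8 (exact 95% interval 44.6 to 70.8), and its width comes mostly from the 80 counts of Neat1. With no division by length the log2 ratio was 4.29. The density of Neat1 is per base of its whole exon of 20771 bases. Whether its fragments came from the short or the long form cannot be read from gene counts. Neat1 made up 3.10%, 6.21%, 4.77% and 5.33% of the counts of Malat1 and Neat1, and the intervals of the 4 libraries overlapped (1.43 to 5.81%, 4.36 to 8.53%, 3.08 to 7.02% and 2.79 to 9.13%). When the loci opposite to Malat1 were added to it, the summed counts were 1941, 574, 999 and 1135 times those of Neat1, and with 0.5 counts added, as in the test, their geometric mean was 1026, with an exact p of 0.125 and an adjusted p of 0.15. No gene opposite to Neat1 had an exon overlapping it, so a like ratio could not be formed there.

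The excess of plus-strand counts at Malat1 had the direction that most such gene pairs in these tables had. Over the whole table, 313 pairs had a gene on 1 strand covering at least 80% of the exon bases of a gene on the other and a mean summed count of at least 20. The covered gene was the denser one in all 4 libraries in 239 of these pairs (76.4%), the sparser one in all 4 in 60, and mixed in 14. Both members' pairs were among the 239, which is no more than this share gives and is not particular to Malat1. The median log2 ratio over all pairs was 7.06 with quartiles of 1.17 and 9.16. The ratio of Gm37376 to Malat1 was exceeded by 96 pairs (30.7%) and that of ENSMUSG00000092267 to Malat1 by 99 (31.6%), so both lay between the median and the upper quartile. The covered gene of a pair was never the longer one by exon length, and here no bases were added to exons. The reach of fragments past short exons therefore enters the ratios of all pairs, and its effect on these ranks was not tested. The headers give a strand setting of 1 for the counting, and no source used here gives the library kit. Whether the fragments assigned to Gm37376 and ENSMUSG00000092267 came from RNA of the plus strand was not tested.

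**Figure D3:**
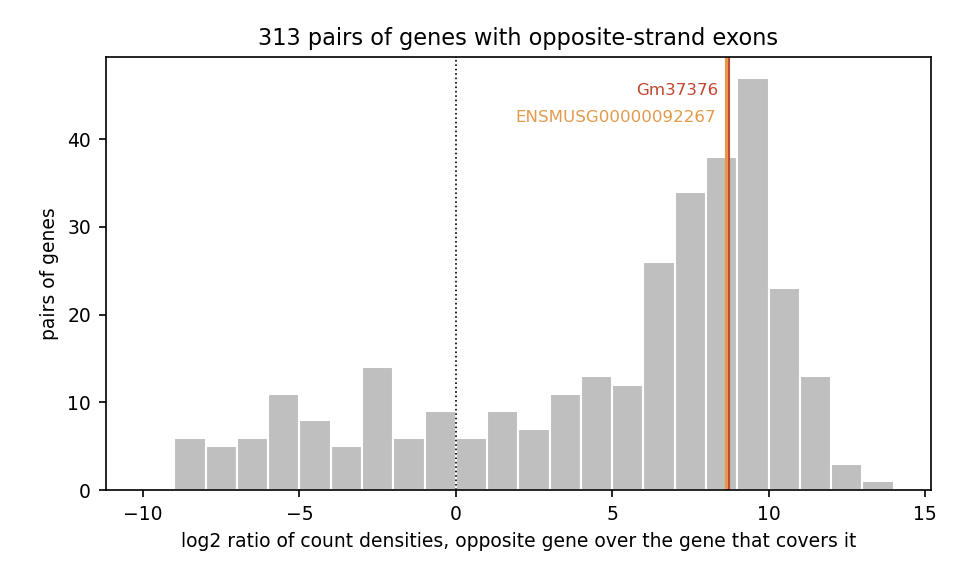
Number of gene pairs (vertical axis) by the mean log2 ratio of count densities, covered gene over the gene that covers it, for 313 pairs with exons on opposite strands; the dotted line marks equal densities and coloured lines mark Gm37376 and ENSMUSG00000092267 over Malat1. Both lines lie at 8.71 and 8.63, above the median of 7.06 and below the upper quartile of 9.16.

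Within 50 kb of the 4 loci, 11 other genes were annotated and 6 of them had a count. The members held 94.6% of the counts of this window. On the plus strand, Gm37376, ENSMUSG00000092267 and 3 neighbours gathered 77451 counts over 9330 exon bases, against 2089 counts over 38113 exon bases on the minus strand. Without the 4 members the neighbours had 3809 counts on the plus strand and 507 on the minus strand. Most of these came from single genes: Frmd8os had 2981 and Ltbp3 789 of the plus-strand counts, and Frmd8 had 405 of those on the minus strand.

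The neighbour nearest to the 5′ end of Neat1 was Frmd8os, whose start on the plus strand was 144 bases from it. Frmd8os had 953, 780, 794 and 454 counts, or 1218 ± 342 counts per kb (SD, n = 4), against 0.963 ± 0.574 for Neat1. Of its 612 exon bases, 388 overlap exons of Frmd8, which lies on the minus strand and had 19.9 ± 5.53 counts per kb. Which of its exons the fragments came from cannot be read from gene counts. Ltbp3, a gene for a protein that binds latent TGF-beta, had 38.01 ± 9.79 counts per kb on the plus strand. Slc25a45 had 7, 21, 7 and 4 counts, and Tigd3 had 3, 0, 0 and 0. A further 5 neighbours are short genes on the minus strand that had no count in any library, which allows up to 3 counts in each. Gm27694 lies within Malat1, and Gm27533, Gm27505 and Gm28006 lie within Neat1, where a fragment that overlaps both genes is not counted for either. They share 86 bases with Malat1 and 384 with Neat1. Gm27702, an annotated small RNA of 56 bases (chr19:5824652-5824707, minus strand), begins where annotated Neat1 ends and was also at 0.

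**Figure D4:**
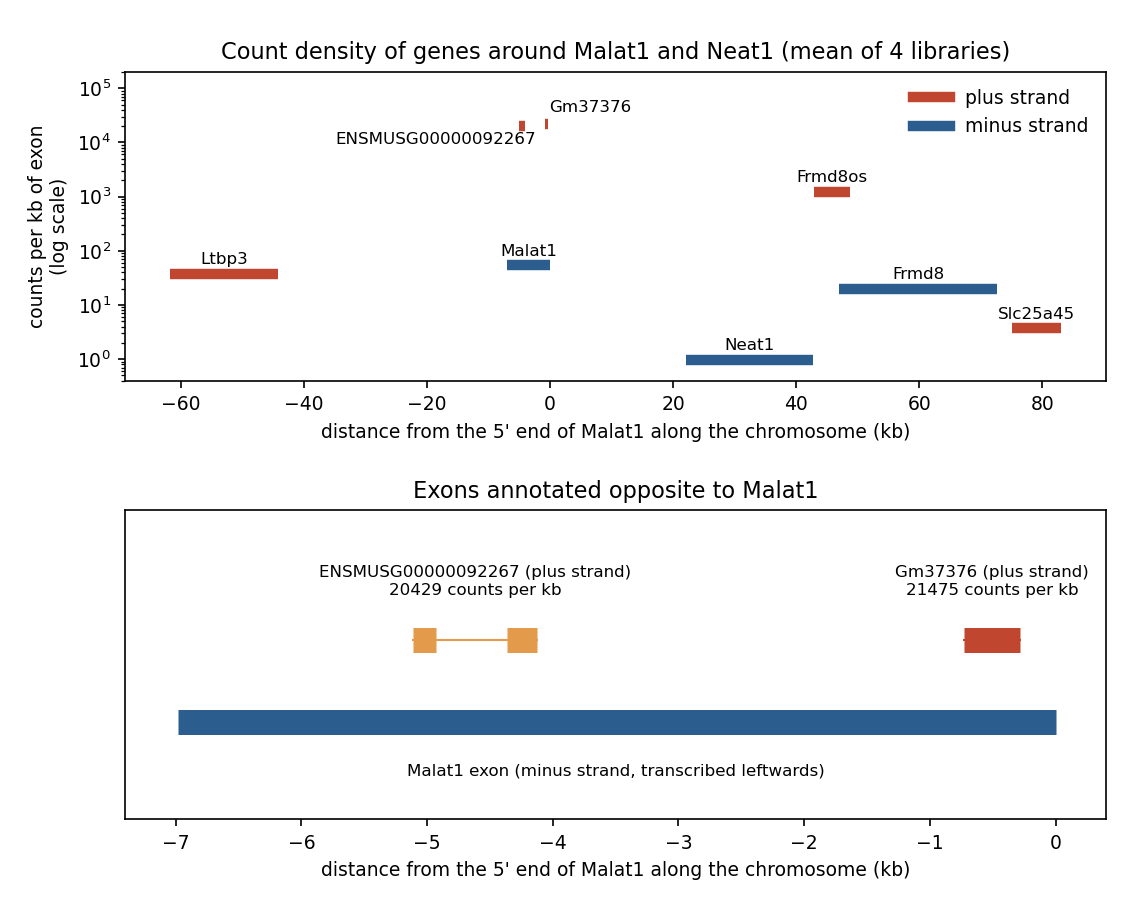
Top, mean counts per kb of exon (log axis, 4 libraries) of the members and of Ltbp3, Frmd8os, Frmd8 and Slc25a45, drawn over each gene's span by distance in kb from the 5′ end of Malat1 and coloured by strand. Bottom, the exons of Gm37376 and ENSMUSG00000092267 above the exon of Malat1, to scale; the plus-strand loci lie at 21475 and 20429 counts per kb and Malat1 at 53.8.

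Counted by fragments on their annotated strand, genes of the nuclear bodies of Malat1 and Neat1 had moderate levels. All 14 genes of a list of paraspeckle proteins had a mean TPM above that of Neat1, and 12 reached a mean of 1 TPM, where 34% of protein-coding genes and 21.6% of all genes did. Their median was 9.09 TPM, against 0.144 TPM over protein-coding genes. The highest were Hnrnph3 at 49.8 ± 6.25 TPM, Hnrnpk at 32.6 ± 6.67 TPM and Sfpq at 30.7 ± 7.26 TPM (SD, n = 4), which all encode RNA-binding proteins. Malat1 at 40.9 ± 12.7 TPM was below the mean of 1 of the 14, Hnrnph3, by less than the SD of Malat1 between libraries. Within libraries, Hnrnph3 was above Malat1 in all 4.

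All 8 nuclear speckle genes were at 1 TPM or more, with a median of 14.6 TPM. The mean of Malat1 was above those of 7 of them, and Son, which encodes a speckle scaffold protein, was the highest at 60.0 ± 6.16 TPM. Srrm2, the other large scaffold protein of speckles, had 24.6 ± 2.44 TPM and Srsf2, a splicing factor, had 23.2 ± 3.00 TPM (SD, n = 4). Of these 22 genes of both bodies, 7 paraspeckle and 4 speckle genes had an exon overlapping a gene on the other strand, among them Hnrnph3, Hnrnpk, Son, Srrm2 and Srsf2. The levels of all 22 refer to fragments assigned to their own strand. Where no gene has an exon on the other strand, fragments placed on that strand enter no gene count.

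The genes that make or bind the ends of Malat1 and Neat1 were lower as a list, with a median of 0.817 TPM and 7 of 14 at a mean of 1 TPM. Trnt1, the enzyme that adds CCA to tRNAs, had 210 ± 18.8 TPM, and its exons overlap those of Crbn on the other strand. Pop5 had 68.3 ± 6.30 TPM and Rpp21 had 8.39 ± 4.12 TPM (SD, n = 4), and both encode protein subunits of RNase P. Rpp25, another such subunit, was at 0 in all 4 libraries, which allows up to 3 counts in each. Neat1 at 0.731 TPM was above 7 of these 14 genes and below the other 7.

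Of 17 other noncoding RNAs, 15 were matched, and 7 of them reached a mean of 1 TPM. Malat1 was above all 15 by mean TPM, and Neat1 was below 7 of them. Tug1 had 12.4 ± 2.15 TPM and Gas5 had 10.97 ± 3.68 TPM (SD, n = 4), while Rn7sk, the RNA of the 7SK particle, had 7 counts that all lay in replicate 2. Meg3, H19 and Miat were at 0 in all libraries. Norad and Oip5os1 were not matched by symbol and are not analysed here. Of the 4 lists together, 34 of 51 genes were at a mean of 1 TPM or more. Of the 22 with an exon overlap on the other strand, the opposite gene had the higher mean TPM for 13 and the lower for 6.

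**Figure D5:**
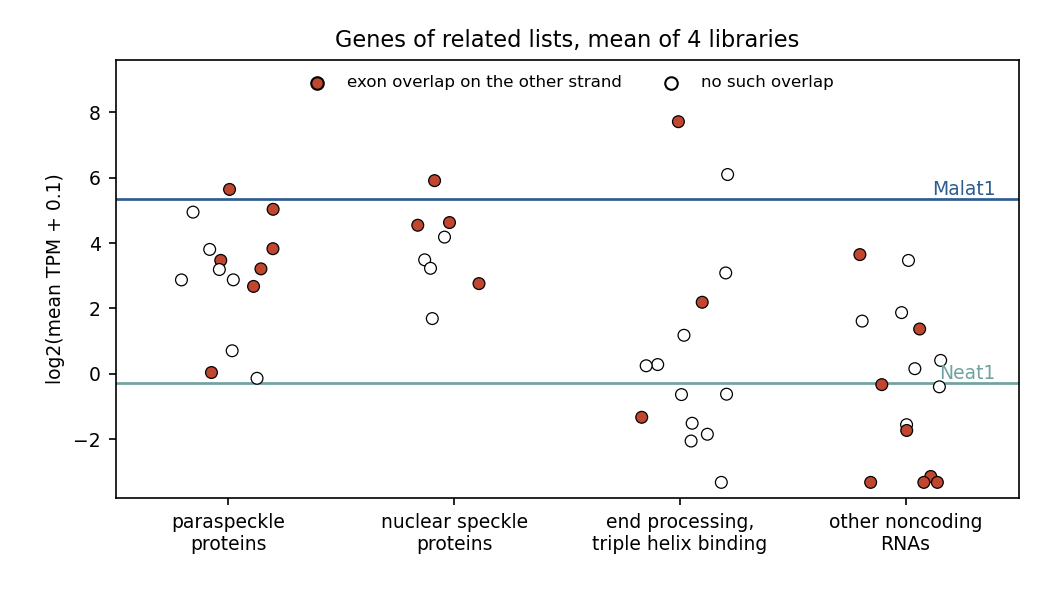
Mean level over 4 libraries, as log2(TPM + 0.1), of each gene of the 4 lists; filled points are genes with an exon overlapping a gene on the other strand, and horizontal lines mark Malat1 (40.9 TPM) and Neat1 (0.731 TPM). Of the listed genes, 4 lie above the Malat1 line, and all paraspeckle and nuclear speckle genes lie above the Neat1 line.

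The libraries differed from each other in ways that bear on the spread of the members. They held 1452053 to 2351916 counts, and 12270 to 14884 genes with a count. The locus CT010467.1, which holds ribosomal RNA sequence, took 6.90%, 16.8%, 3.473% and 12.6% of replicates 1 to 4, so replicates 2 and 3, where Malat1 and Neat1 were highest, had the highest and the lowest share. The labelled cell type was checked against markers: 6 of 6 T cell genes were at 1 TPM or more (median 29.1 TPM), and of the Th2 genes Gata3 had 5.87 ± 2.08 TPM, Il4 had 7.96 ± 5.76 TPM, and Il5 and Il13 were at 0 (SD, n = 4). Il4 rested on 14, 12, 25 and 2 counts in replicates 1 to 4, the last of them under the 3 counts that a count of 0 allows. Of 16 markers of other cell types, 9 were at 0 and 5 reached 1 TPM, the highest being Csf1r at 107 ± 10.7 TPM, Cpa3 at 42.4 ± 11.9 TPM and Cd79a at 38.95 ± 3.91 TPM. The levels of all these markers too depend on the strand assignment. Among them, Csf1r shares exon bases with Hmgxb3 (1.02 TPM) on the other strand, Cd3e (10.4 TPM) with Gm48719 (11641 TPM) and Gata3 with Gm13256 (466 TPM). In bulk samples, fewer cells of a type and less RNA per cell cannot be told apart.

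Malat1 varied more between the libraries than most genes, without passing the test. Its quasi-dispersion was 4.35 times the trend at its abundance and ranked 48 of 5755 genes (edgeR upper-tail F test, unadjusted p = 0.00451, Benjamini-Hochberg adjusted p = 0.524, and between 0.524 and 0.991 over all edgeR settings run). The ratio was 2.15 for Gm37376 and 1.45 for ENSMUSG00000092267, each with an edgeR adjusted p of 0.995. Of the 5755 genes, 16 (0.278%) passed an adjusted p of 0.05 and 285 had an unadjusted p under it, and the members that could be tested were among the 16 in 0 of 3 cases. Without replicate 1 the ratio was 2.79 for Malat1 and 1.19 for Gm37376. Without replicate 2 it was 5.12 for Gm37376 and 3.15 for ENSMUSG00000092267, and without replicate 3 it was 1.06 and 0.175 for these loci. The number passing stayed at 0 in each case. Neat1 had too few counts to be tested, and with the filter on low counts removed its ratio was 1.26 with an edgeR adjusted p of 0.919. DESeq2, used here for the dispersion alone, put Malat1 at 2.61, Neat1 at 0.749, Gm37376 at 2.73 and ENSMUSG00000092267 at 2.07 times its trend.

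Profiles over the 4 libraries were compared as distances between log2 CPM values centred on each gene's mean. Gm37376 and ENSMUSG00000092267 were 0.17 apart, Malat1 was 0.62 from each of them and 0.74 from Neat1, and Neat1 was 1.18 from Gm37376 and 1.26 from ENSMUSG00000092267. Among 2224 other genes with a mean count of at least 100, the nearest to Malat1 were Hnrnpdl (0.12), Wbp4 (0.13) and Pitpnm1 (0.17). The nearest to Neat1 were Rps15a (0.49), 4932438A13Rik (0.51) and Cytip (0.55), at larger distances. Neat1 itself had a mean count of 20, so counting error enters all of its distances more, and how much of them it makes up was not tested. Those nearest to Gm37376 were Gm45507 (0.04), 4931431C16Rik (0.11) and H60b (0.11), and those nearest to ENSMUSG00000092267 were Atg16l2 (0.04), Gm29237 (0.06) and Manf (0.06). These distances rest on 4 libraries, and all genes of a library share its total and its ribosomal RNA share. Over so few libraries many genes lie close to any profile.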

How the data were processed

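The authors deposited 1 table of raw counts of fragments per gene for each library. Per the file headers, these counts came from featureCounts 1.4.6-p4 over exons of GENCODE mouse release 13 on mm10, with read pairs as fragments, both ends aligned and strand setting 1. No option to count fragments of several same-strand genes or several alignments was set there. Trimming and aligner settings were not found in those headers or the labels.

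CPM, counts per kb of exon and TPM were computed here from the counts and the deposited exon lengths (Python 3.11.15, pandas 2.3.3, numpy 2.4.6, scipy 1.17.1). Symbols were matched for 50376 of 50600 genes, and gene types and sequences came from GENCODE mouse release 21 (GRCm38). The sequence of ENSMUSG00000092267, which is not in that release, was read from the opposite strand of Malat1 by coordinates. Exon overlaps were found with bedtools 2.31.1. No library was a copy of another (chi-square of counts over genes 6.29 to 24.8 per degree of freedom for each pair).

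Ratios were taken within each library on log2 values with 0.5 counts added, and tested by flipping the signs of the 4 values in every pattern (an exact permutation, two-sided), in which 2 of 16 patterns are the most extreme, with Benjamini-Hochberg adjustment over 6 ratios. Spread was estimated on the whole table with edgeR 4.0.16 (filterByExpr, TMM factors, intercept only) in R 4.3.3, with DESeq2 1.42.0 as an alternative, and the steps were tested on simulated data. In the simulated counts for spread all unchanged genes had the same dispersion, so they do not show how the test behaves on these libraries. Other alternatives changed scaling, pseudocount, filters, lengths, overlap and libraries. The genes named are the members, neighbours within 50 kb that have a count or are at 0, the 3 highest and those at 0 of each list, the 3 nearest profiles and cell type markers; CT010467.1 was added after its values were seen. A neighbour with counts is not reported here. Members and lists were chosen with earlier results of these data known.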

Additional observations from a re-analysis of the deposited data

Results flagged for a closer look

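For each value below, 1 of the 4 libraries stood apart: its gap to the nearest other library, divided by the range of all 4, was above the 95% critical value of Dixon's test. Of 41 values examined 6 met this, and chance gives it in about 1 in 20 groups of normally distributed values. ENSMUSG00000092267 was at 5742 CPM in replicate 3, with the others at 3910 to 4155 (gap 0.866 of the range). Slc25a45, beyond Frmd8 on the far side of Neat1, was at 8.93 CPM in replicate 2 (gap 0.857). Tigd3 had its 3 counts in replicate 1 and Rn7sk its 7 counts in replicate 2. With counts in 1 library only, the gap is the whole range (1) by construction, and the rate of 1 in 20 does not apply. Of the T cell genes, Lck reached 45.3 TPM in replicate 2 (gap 0.886) and Cd3e 16.01 TPM in replicate 2 (gap 0.921).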

How the results depend on the processing

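Of 132 alternative values over 18 results, 126 kept their direction and, where tested, their side of the threshold (for values with no test, stayed within the spread or 1.5 times). The spread of 2 loci passed to the other side of the trend, none of it called: Neat1 was at 0.681 without replicate 1 and 0.749 with DESeq2, against 1.26, and ENSMUSG00000092267 ranged over single left-out replicates between 0.175 (without replicate 3) and 3.15 (without replicate 2), against 1.45; the cause was not tested. Malat1 was at 2.61 with DESeq2, against 4.35. The other 2 were counts that changed with the size of the set: with 50% of exon bases covered in place of 80%, the opposite gene was denser in all libraries in 392 of 529 pairs (74.1%), and without list genes that overlap an exon on the other strand, an alternative chosen after seeing the data, 20 of 29 list genes reached 1 TPM, against 34 of 51. Fewer or more genes and pairs entered these counts by construction. Over all scalings and with each library left out, the mean CPM was 4527 to 5666 for Gm37376, 4011 to 5016 for ENSMUSG00000092267, 168 to 214 for Malat1 and 8.32 to 11.9 for Neat1. Adding 200 or 400 bases to each exon was also chosen after seeing the data. No paired analysis was possible because there was only 1 group. Depth limits Neat1, with 80 counts over 4 libraries, and the number of libraries keeps every exact p at 0.125 or above.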
